A study of Mus musculus with 28 samples.

Results

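A set of 10 genes, widely used as markers of neutrophils and of their granules, was examined, taken as a fixed list of symbols out of the 48587 gene rows of the count table. The 10 genes were *S100a8* and *S100a9* (cytosolic proteins), *Lcn2*, *Ltf*, *Ngp*, *Camp*, *Cd177* and *Mmp8* (specific granule class), *Mmp9* (gelatinase granule class) and *Retnlg* (a secreted resistin-like protein). The genes were selected on their read counts in these same libraries and groups, so the levels are given as a description and were not tested. RNA was sequenced from FACS-isolated CD11b+CD45low microglia of the hippocampus of 28 mice, 1 library per mouse. The mice were male heterozygous 5xFAD animals, a transgenic model of Alzheimer's disease in which the neuron-specific Thy-1 promoter drives mutant human APP and PS1, and their non-transgenic WT littermates on a C57BL/6J background, all 16 weeks old by the labels. They were kept specific pathogen free (SPF, 5 WT and 3 5xFAD), germ-free (GF, 4 WT and 5 5xFAD) or SPF with antibiotics in the drinking water for the last 8 weeks (ABX: vancomycin, cefoxitin, gentamicin and metronidazol, 5 WT and 6 5xFAD). The germ-free mice came from a facility in Bern and the others were kept in Freiburg, so that germ-free housing cannot be told apart from the place of origin. The sort left out cells that bound anti-Ly6C or anti-Ly6G, antibodies against monocyte and neutrophil surface proteins.

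Neutrophils build their granules in sequence as they mature in the bone marrow. The azurophil granule with its serine proteases is made first, at the promyelocyte stage, the specific granule with lactoferrin, lipocalin and cathelicidin follows at the myelocyte and metamyelocyte stages, and the gelatinase granule comes last. Transcription of a granule protein gene largely stops when its stage has passed, whereas S100A8 and S100A9 fill the cytosol of the mature cell. In the healthy brain parenchyma neutrophils are rare, and microglia are the main CD11b+ cell.

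The promoters of 3 of the genes with the most reads are printed because these genes differed between the libraries in parallel, as described below. *S100a8* had more reads (2512) than *S100a9* (2370) and *Ltf* (2218) and differed in parallel too, but it lacks the motif searched here and is not printed. The printed stretches thus do not show how common the motif is among the leading genes. A C/EBP motif, the 8 letters TTGCNNAA, was searched on both strands of the 250 bases before the gene start in the RefSeq promoter table (GRCm38.p6), where 9 of the 10 symbols were found and *Mmp9* was not. Capitals mark the motif within the printed stretch, and the sequences are written 5′ to 3′ on the strand of the gene up to the base before the gene as GENCODE annotates it, while distances are counted from the start in RefSeq. *S100a9* is shown at chr3:90695722-90695971 (minus strand), *Ltf* at chr9:111019042-111019270 (plus strand) and *Ngp* at chr9:110419558-110419746 (plus strand).
S100a9: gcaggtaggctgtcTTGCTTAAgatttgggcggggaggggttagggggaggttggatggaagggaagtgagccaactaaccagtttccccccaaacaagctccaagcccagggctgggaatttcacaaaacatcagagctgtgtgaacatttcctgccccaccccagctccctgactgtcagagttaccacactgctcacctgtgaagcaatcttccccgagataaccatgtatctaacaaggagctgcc
Ltf: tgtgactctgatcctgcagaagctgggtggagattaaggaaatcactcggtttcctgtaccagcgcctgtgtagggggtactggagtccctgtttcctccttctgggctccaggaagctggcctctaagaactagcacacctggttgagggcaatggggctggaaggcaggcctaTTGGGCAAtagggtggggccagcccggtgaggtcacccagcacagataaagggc
Ngp: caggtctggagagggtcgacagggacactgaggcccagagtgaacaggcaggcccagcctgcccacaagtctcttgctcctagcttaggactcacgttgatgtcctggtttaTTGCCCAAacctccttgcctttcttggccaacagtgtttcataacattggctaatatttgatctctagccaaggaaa
The motif begins 236 bases before the start of *S100a9*, 75 bases before that of *Ltf* and 138 bases before that of *Ngp*, which has a further TTGGGCAA that begins 11 bases before its start, in the last 61 bases of the window, which are not printed. Of the 9 members found, 6 held the motif, the others being *Lcn2*, *Mmp8* and *Retnlg*, whereas *S100a8*, *Camp* and *Cd177* did not. Among all 32851 promoters of the table, 9.56% held it. A match of letters is a description of the window and not evidence of binding, and *Mmp8* and *Retnlg*, which hold it, were at or near 0 reads here.

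The genes lie in a few places of the genome (GRCm38, GENCODE M21). *S100a8* (chromosome 3, 90668978 to 90670035, plus strand) and *S100a9* (90692632 to 90695721, minus strand) are neighbours. *Camp* (chromosome 9, 109847379 to 109849617, minus strand), *Ngp* (110419747 to 110423012, plus strand) and *Ltf* (111019271 to 111042767, plus strand) lie in one stretch of chromosome 9. *Lcn2* (32384633 to 32388252, minus strand) and *Mmp9* (164940780 to 164955850, plus strand) are on chromosome 2 and *Cd177* on chromosome 7 (24743983 to 24760311, minus strand). No exon of another annotated gene overlapped an exon of any of the 10. Counting without strand could thus not add reads of an overlapping exon to them.

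Library totals ranged from 14441610 to 29977395 reads, and levels are given as CPM, counts scaled to the reads of the whole library. At these depths a count of 0 allows up to 3 reads, or 0.1001 to 0.208 CPM depending on the library. These limits and the intervals below cover counting error only, since reads amplified by PCR are not independent molecules. Library descriptions were written in 3 ways, and whether these mark preparation batches is not given in the sources used here. A running number with a 4-digit animal number was given to 4 libraries, the 3 SPF 5xFAD libraries FAD_SPF_1144, FAD_SPF_1146 and FAD_SPF_1148 and the ABX 5xFAD library FAD_ABX_1151. Libraries are called here by title, in which FAD stands for 5xFAD and the number for the animal. All SPF WT and ABX WT libraries had a running number with a 3-digit animal number, and the other 5 ABX 5xFAD libraries and all GF libraries had a running number with condition and genotype. For the SPF 5xFAD group, the way of describing the library and the group itself cannot be told apart. The library of FAD_GF_201 is labelled 5xFAD by title and genotype but GF WT by its description, and was used as GF 5xFAD. Markers of microglia summed to between 39607 and 45336 CPM in the 4 libraries and to between 38643 and 56962 CPM in the other 24, so the sorted cells carried the RNA of microglia in every library.

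Reads of the 10 genes were concentrated in the 4 libraries described by a 4-digit animal number. They held 13493 of the 13769 reads that the 10 genes received in all 28 libraries, or 98.0%. The summed level was 283.4 CPM in FAD_SPF_1144, 206.8 in FAD_SPF_1146, 68.7 in FAD_SPF_1148 and 156.1 in FAD_ABX_1151. In the other 24 libraries it ranged from 0 to 5.02 CPM, and in the 14 WT libraries no single gene of the 10 exceeded 0.294 CPM. The lowest of the 4 was therefore 13.7 times the highest of the 24, and the 2 sets did not overlap. Even in the 4 libraries the 10 genes took only 0.00687 to 0.0283% of all reads. In sorted bulk samples, fewer cells of a type and less RNA per cell cannot be told apart.

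**Figure D1:**
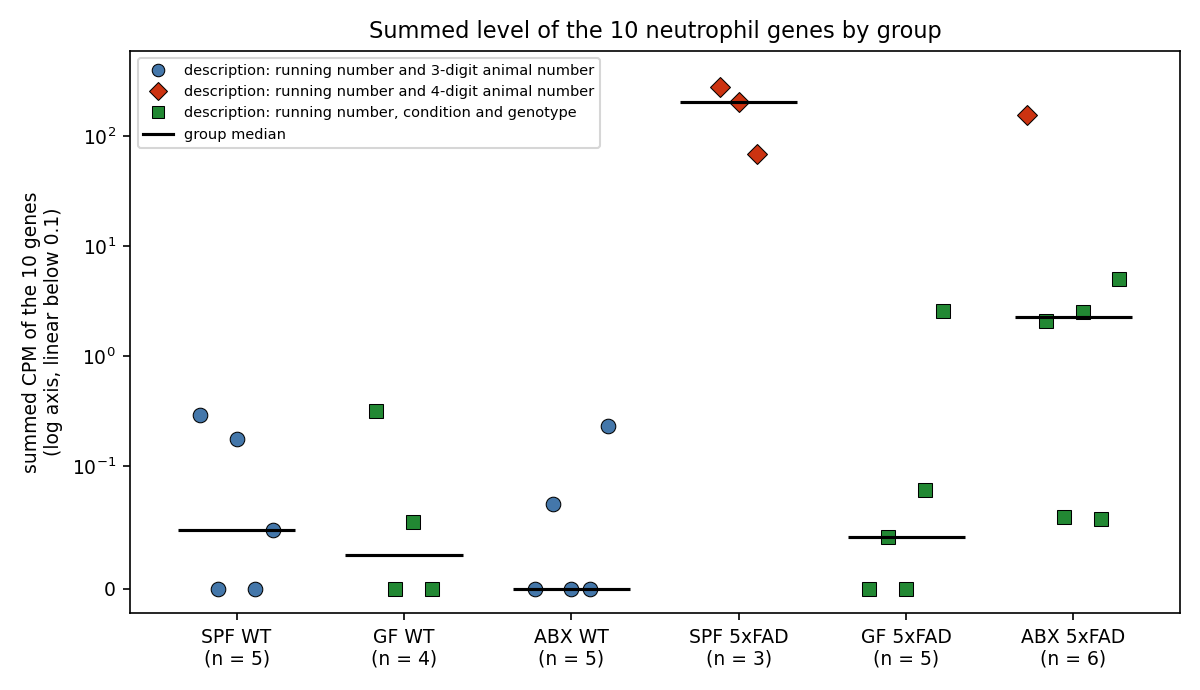
Summed CPM of the 10 neutrophil genes (vertical log axis, linear below 0.1) in each library by group, with the way of description as symbol and colour and the group median as a line. The 3 SPF 5xFAD libraries and FAD_ABX_1151 lie between 68.7 and 283.4 CPM, and the other 24 lie at or below 5.02 CPM.

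For 7 of the 10 genes, *S100a8*, *S100a9*, *Lcn2*, *Ltf*, *Ngp*, *Camp* and *Cd177*, each of the 4 libraries lay above each of the other 24. Of all 15298 genes tested, 33 or 0.216% showed this, and since the genes were chosen for their levels nothing is read from the contrast. Of the 10 genes, 8 passed the filter on low counts (not *Mmp8* and *Retnlg*). The 7 genes that separated the libraries passed only through the 4 libraries in which they were high.

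*S100a8* and *S100a9* encode the subunits of calprotectin, a calcium- and zinc-binding alarmin of the neutrophil cytosol. *S100a8* had 958, 697 and 319 reads in FAD_SPF_1144, FAD_SPF_1146 and FAD_SPF_1148 and 531 in FAD_ABX_1151, or 50.9, 34.5, 17.3 and 30.5 CPM. In the other 24 libraries it had 7 reads in FAD_ABX_1455 and none elsewhere. *S100a9* had 49.3, 35.5, 14.7 and 25.6 CPM in the same 4 libraries. It was close to its partner in each of them, with 0.972 to 1.19 reads of *S100a8* for each read of *S100a9*. Elsewhere *S100a9* had 1 to 3 reads in each of 4 libraries, WT_SPF_926, WT_GF_199, FAD_ABX_1453 and FAD_ABX_1482, which is no more than the limit that a count of 0 allows. The SPF 5xFAD means were 34.2 ± 16.8 CPM for *S100a8* and 33.2 ± 17.5 CPM for *S100a9* (SD, n = 3), and all 5 GF 5xFAD libraries were at 0 for both.

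The specific granule genes *Ngp*, *Ltf*, *Camp*, *Lcn2* and *Cd177* had the same distribution, whereas *Mmp8* of that class did not. *Ngp*, neutrophilic granule protein, a cystatin-related protein of the specific granule, had the most reads of the 10 genes, with 1746, 1209 and 308 in FAD_SPF_1144, FAD_SPF_1146 and FAD_SPF_1148 and 850 in FAD_ABX_1151 (92.8, 59.8, 16.7 and 48.9 CPM). Among the other 24 libraries it had 1 read in FAD_GF_201 and 1 in FAD_ABX_1460. *Ltf*, lactoferrin, an iron-binding protein, had 799, 861, 85 and 461 reads (42.5, 42.6, 4.598 and 26.5 CPM) in the 4 libraries. Outside them it had 7 reads in WT_SPF_912 and 5 in WT_ABX_932, both above the limit of 3 reads, and 0 in the other 22. *Camp*, the cathelicidin precursor of an antimicrobial peptide, had 516, 343, 146 and 209 reads (27.4, 17.0, 7.90 and 12.0 CPM), against 1 read in each of 4 of the other 24.

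*Lcn2*, lipocalin 2, which binds bacterial siderophores and is also made by reactive astrocytes, had 10.6, 9.95 and 4.44 CPM in FAD_SPF_1144, FAD_SPF_1146 and FAD_SPF_1148 and 7.65 CPM in FAD_ABX_1151 and 1 read, in WT_ABX_932, in the other 24 libraries. *Cd177*, a surface glycoprotein of neutrophils that is also stored in their specific granules, had 157, 84, 33 and 72 reads (8.35, 4.16, 1.79 and 4.14 CPM), and no read in the other 24. *Lcn2* and *Cd177* were thus the lowest of these 7 genes in reads, but still stood apart in the same 4 libraries.

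**Figure D2:**
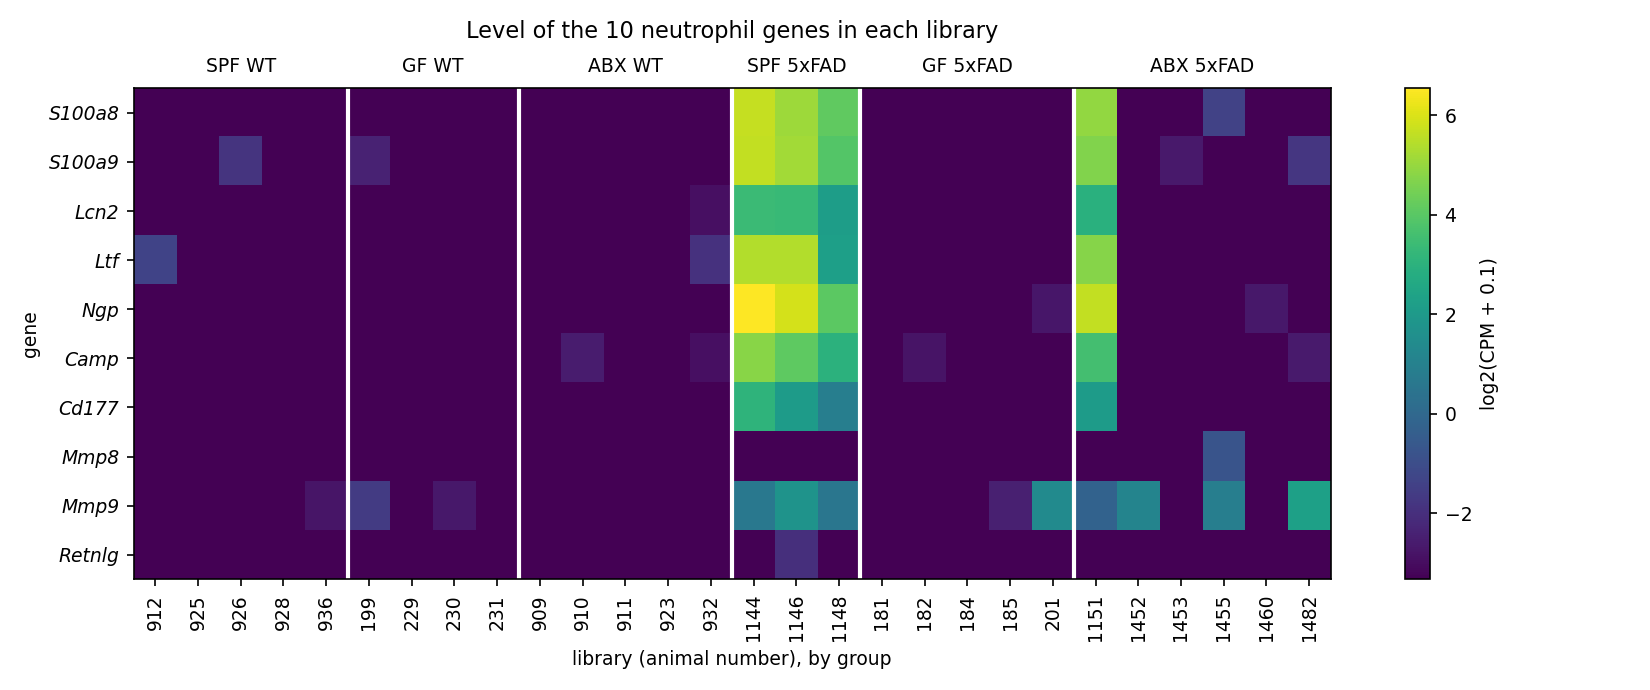
Level of each of the 10 genes as log2(CPM + 0.1) (colour) in each of the 28 libraries (columns, by group and animal number). Bright cells for *S100a8* to *Cd177* are confined to FAD_SPF_1144, FAD_SPF_1146, FAD_SPF_1148 and FAD_ABX_1151, while *Mmp9* is also seen in FAD_GF_201, FAD_ABX_1452, FAD_ABX_1455 and FAD_ABX_1482.

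The 4 libraries kept nearly one order over these genes. FAD_SPF_1144 was highest, then FAD_SPF_1146, FAD_ABX_1151 and FAD_SPF_1148, for 6 of the 7 genes. The exception was *Ltf*, for which FAD_SPF_1146 exceeded FAD_SPF_1144 by 0.286%. The highest library exceeded the lowest by 2.39-fold for *Lcn2*, 2.95-fold for *S100a8*, 3.37-fold for *S100a9*, 3.47-fold for *Camp*, 4.68-fold for *Cd177*, 5.57-fold for *Ngp* and 9.27-fold for *Ltf*. The genes thus shared the order of the libraries but not the size of the difference between them. Since 1 library of the ABX 5xFAD group and not the other 5 held these reads, the group mean describes none of its libraries. For *Ngp* the ABX 5xFAD mean was 8.16 ± 20.0 CPM (SD, n = 6), while the 5 libraries other than FAD_ABX_1151 had at most 0.0570 CPM.

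The make-up of these reads was compared between the 4 libraries as the share of each gene in the reads of the 10, with exact Clopper-Pearson 95% intervals. *Ngp* was the largest or second largest share in each, with 32.8% (31.5 to 34.0) in FAD_SPF_1144, 28.9% (27.6 to 30.3) in FAD_SPF_1146, 24.3% (21.9 to 26.7) in FAD_SPF_1148 and 31.3% (29.6 to 33.1) in FAD_ABX_1151. The share of *Ltf* was 15.0% (14.0 to 16.0), 20.6% (19.4 to 21.9), 6.70% (5.39 to 8.22) and 17.0% (15.6 to 18.5). It was lowest in FAD_SPF_1148, where its interval lay below those of the others, but the intervals take amplified reads as independent and are therefore too narrow. *S100a8* took 18.0, 16.7, 25.1 and 19.6% and *S100a9* 17.4, 17.2, 21.4 and 16.4%, so both were highest in the library with the least *Ltf*. For each read of *Ngp* there were 0.458, 0.712, 0.276 and 0.542 reads of *Ltf* and 0.296, 0.284, 0.474 and 0.246 reads of *Camp*. FAD_ABX_1151 lay between SPF 5xFAD mice in the share of *S100a8*, *Ltf*, *Ngp*, *Lcn2* and *Cd177*, and below all 3 of them in that of *S100a9*, *Camp* and *Mmp9*, where its intervals overlapped those of at least 1 of them. With 1 ABX library of this kind, no difference between ABX and SPF mice can be drawn from it.

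**Figure D3:**
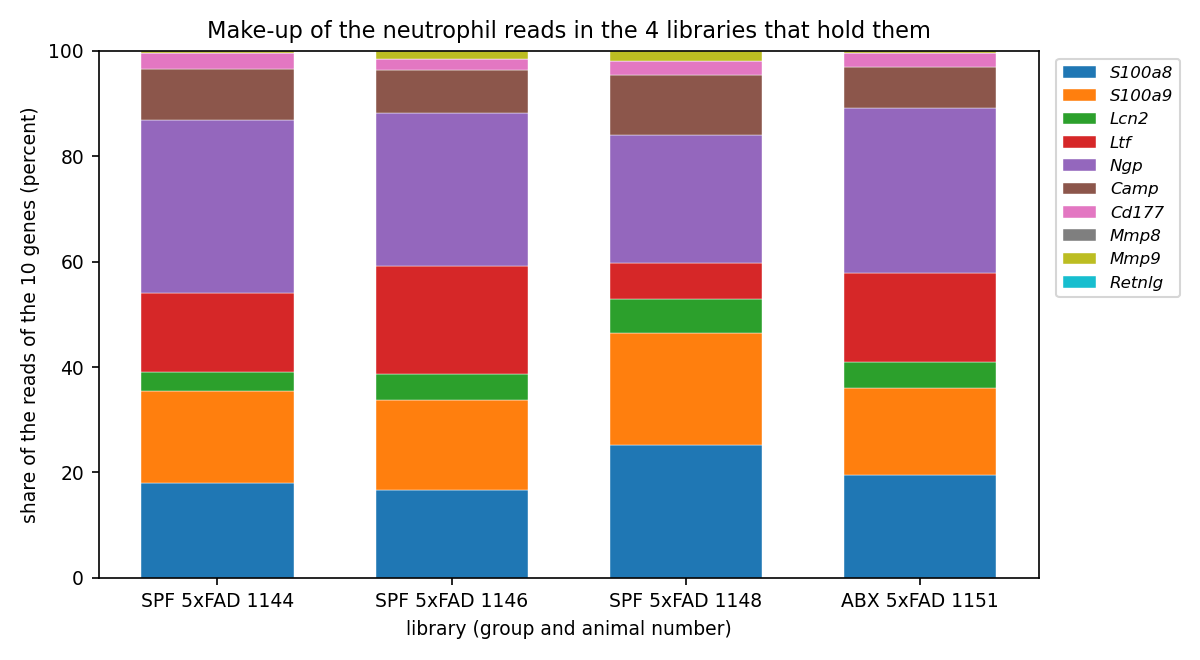
Share of each gene (percent, stacked) in the reads of the 10 neutrophil genes in the 4 libraries that hold them, with 1 bar per library. *Ngp*, *S100a8*, *S100a9* and *Ltf* make up most of each bar, and the share of *Ltf* is 6.70% in FAD_SPF_1148 and 15.0 to 20.6% in the others.

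Levels of different genes can be compared only per length, here the summed exon length in the table. Per kilobase, the SPF 5xFAD mean was highest for *S100a9* with 63.5 ± 33.4 CPM per kb, followed by *S100a8* with 49.3 ± 24.3 and *Ngp* with 46.2 ± 31.3 (SD, n = 3). Within each of the 4 libraries *S100a9* was the highest of these 3 per kilobase, while *S100a8* and *Ngp* changed places. *Camp* reached 23.0 ± 12.9, *Ltf* 8.67 ± 6.35, *Lcn2* 3.17 ± 1.29, *Cd177* 1.68 ± 1.17 and *Mmp9* 0.566 ± 0.298 CPM per kb. On this scale *Ltf*, the longest transcript of the 7, was no longer among the leading genes. The same order of genes held in FAD_ABX_1151, with *S100a9* at 49.0 and *S100a8* at 44.0 CPM per kb.

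Of the remaining 3 genes, *Mmp8* and *Mmp9* did not follow this distribution, and *Retnlg* had too few reads to tell. *Retnlg*, the resistin-like gamma gene that mature mouse neutrophils express, had 3 reads in FAD_SPF_1146 and 0 in the other 27 libraries. *Mmp8*, the neutrophil collagenase, had 0 reads in all 4 libraries and its only reads, 12, in FAD_ABX_1455 (0.489 CPM). That library also held the 7 reads of *S100a8* outside the 4 libraries. For both genes the deposited exon coordinates differ slightly from the span in GENCODE, and none is given for them.

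*Mmp9*, gelatinase B, an extracellular protease of the latest granule that macrophages and microglia can also make, was more widely detected. It had 27, 65 and 25 reads (1.44, 3.22 and 1.35 CPM) in FAD_SPF_1144, FAD_SPF_1146 and FAD_SPF_1148 and 13 (0.748 CPM) in FAD_ABX_1151. It was as high in 4 libraries with next to no *Ngp*, with 51 reads in FAD_GF_201 (2.53 CPM), 52 in FAD_ABX_1452 (2.08 CPM), 43 in FAD_ABX_1455 (1.75 CPM) and 74 in FAD_ABX_1482 (4.76 CPM). Only 36.2% of its reads were in the 4 libraries described by a 4-digit animal number, against 99.46 to 100% for the 7 genes above. *Mmp9* was above 3 reads in 8 of 14 5xFAD libraries, namely 3 of 3 SPF, 1 of 5 GF and 4 of 6 ABX, and in 1 of 14 WT libraries, WT_GF_199 with 5 reads. The 1 GF 5xFAD library was that with the conflicting label. Without it the GF 5xFAD libraries had at most 0.0808 CPM.

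**Figure D4:**
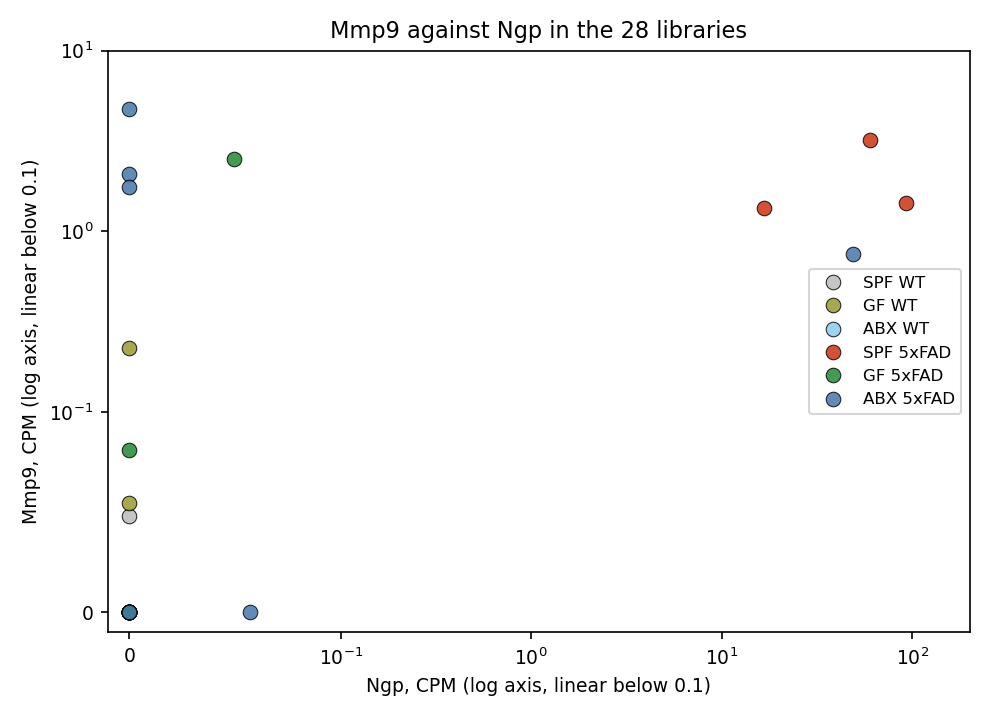
*Mmp9* against *Ngp* in the 28 libraries, both in CPM on log axes that are linear below 0.1, coloured by group. *Mmp9* is between 0.748 and 3.22 CPM in the 4 libraries with *Ngp* reads above 16 CPM and between 1.75 and 4.76 CPM in 4 libraries with *Ngp* at or near 0.

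Other neutrophil genes were examined by stage and function in a list of 43. Of these, 4 had each of the 4 libraries above each of the other 24: *Chil3*, *Hp*, *Wfdc21* and *Serpinb1a*. *Serpinb1a* did not pass the filter on low counts, so that the 4 of 43 and the 0.216% of all genes tested do not have the same base, and the other 3 of the 4 passed only through these libraries, so nothing is read from the contrast. *Chil3*, a chitinase-like secreted protein of neutrophil precursors and alternatively activated macrophages, had 557, 306 and 115 reads in FAD_SPF_1144, FAD_SPF_1146 and FAD_SPF_1148 and 147 in FAD_ABX_1151, and 1 read in the other 24. Its reads can be shared with near-identical copies such as *Chil4*. *Hp*, haptoglobin, which binds free haemoglobin, had 40, 22, 11 and 19 reads and none in the other 24. *Wfdc21*, a small WAP-domain protein, had 14 to 25 reads against at most 5. *Serpinb1a*, an inhibitor of neutrophil serine proteases from a family with several close copies, had 9 to 29 against at most 3.

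Of the list class of the azurophil granule, *Serpinb1a*, which encodes an inhibitor of its proteases, is given above, and the other 5 genes had at most 5 reads in each of the 4 libraries. *Mpo*, myeloperoxidase, had 4 reads in FAD_SPF_1146, 0 in the other 3 of the 4 libraries and 7 in FAD_ABX_1482. *Elane*, neutrophil elastase, had 1 read in each of 2 of the 4 libraries. *Prtn3* and *Ctsg*, its sister proteases, had none in the 4. *Ms4a3*, a membrane protein of granulocyte and monocyte progenitors, had 0 to 5 reads in the 4 libraries and 0 in the other 24.

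Receptor and cytosolic genes of the list varied in level. *Ly6g*, the antigen bound by the antibody with which neutrophils were gated out, had 5, 5, 0 and 1 reads in FAD_SPF_1144, FAD_SPF_1146, FAD_SPF_1148 and FAD_ABX_1151 and 0 in the other 24. *Cxcr2*, the chemokine receptor of circulating neutrophils, had 0 to 4 reads in the 4 libraries and up to 36 in the others. The stefin genes *Stfa2*, *Stfa3*, *Stfa2l1*, *BC100530* and *Gm5483*, together with *Ctsg*, *Mrgpra2a* and *Il1f9*, were at 0 in all 28 libraries. *Csf3r*, the receptor of granulocyte colony-stimulating factor, had 11588 to 13691 reads in the 4 libraries and up to 17212 in the others, so it did not mark them.

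**Figure D5:**
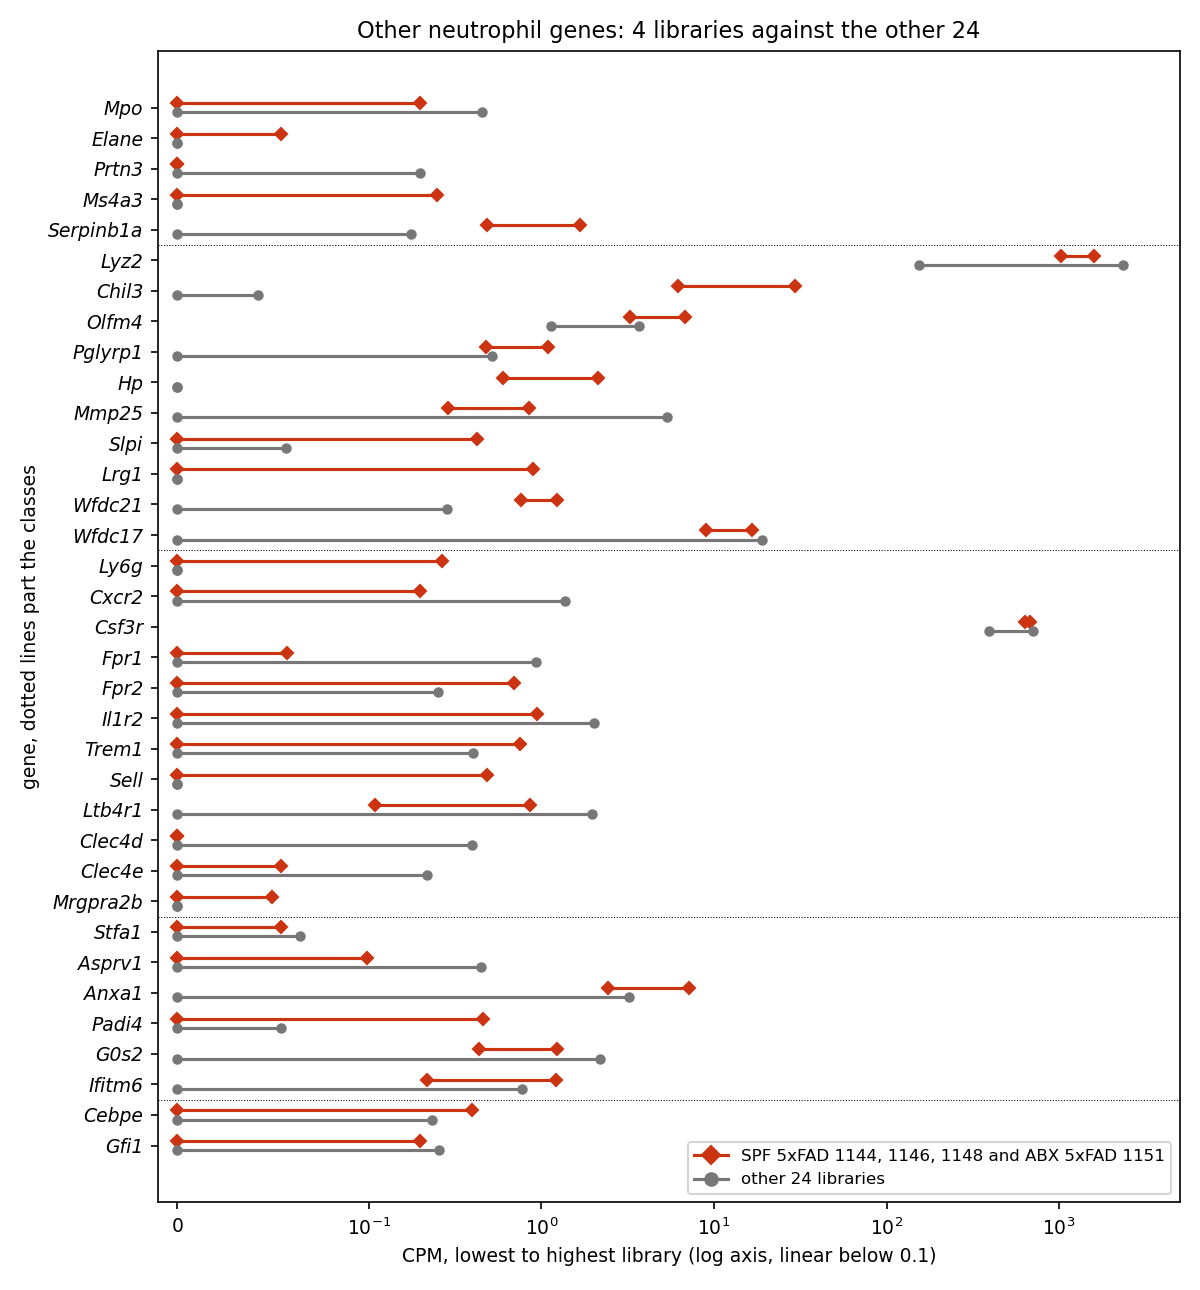
Range of CPM (log axis, linear below 0.1) of the other neutrophil genes with a read, from the lowest to the highest library, for the 4 libraries described by a 4-digit animal number (red diamonds) and the other 24 (grey circles). The ranges are apart for *Serpinb1a*, *Chil3*, *Hp* and *Wfdc21*, overlap for the other genes, and both start at 0 for most receptors.

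Summed markers of other cell types did not single out these libraries, with 1 marker gene as an exception. Between the 4 and the other 24 libraries, summed CPM of 6 monocyte markers ranged from 9.40 to 11.0 and from 3.72 to 54.6, of 7 border-associated macrophage markers from 16.1 to 34.0 and from 3.48 to 253, and of 6 B cell markers from 585 to 665 and from 548 to 807. T cell markers reached at most 0.595 and 0.440 CPM and erythrocyte markers 0.162 and 0.901 CPM. In none of these sums did the 4 libraries lie above the other 24, and of the single markers 1, the monocyte marker *Ly6c2* (a gene of the Ly6C antigen, which neutrophils carry at a lower level and which the sort gated against), did, with 3 to 19 reads in the 4 and at most 0 in the others. Of the T cell markers 2 of 6 and of the erythrocyte markers 4 of 5 were at 0 in all 4. The part of other blood cells in the neutrophil reads was not tested.

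The genes whose levels were most like the mean of the 10 genes over the 28 libraries were ranked by Pearson's correlation of log2 CPM among 15290 genes. This ranking is a measure of likeness that is set by the same 4 libraries. It was led by *Chil3* (r = 0.988, Spearman's rho = 0.764), *Hp* (0.986, 0.812), *Itgb2l* (0.983, 0.812), *Fcnb* (0.981, 0.810) and *Wfdc21* (0.863, 0.583). *Itgb2l*, an integrin beta chain-like gene of neutrophils, had 17, 39, 13 and 13 reads in FAD_SPF_1144, FAD_SPF_1146, FAD_SPF_1148 and FAD_ABX_1151, and *Fcnb*, ficolin B, a lectin of immature myeloid cells, had 20, 29, 25 and 15. Both had 0 reads in the other 24. In 11 of 15298 genes, or 0.0719%, the lowest of the 4 libraries exceeded the highest of the other 24 by more than 3-fold, and they were the 7 genes described first together with *Chil3*, *Fcnb*, *Hp* and *Itgb2l*. Since the 7 were chosen on these counts and all 11 had few or no reads elsewhere, nothing is read from this count. From the sixth place on the likeness fell to 0.699 or less, with *Slc12a2*, *Ttc3*, *Gpr137c*, *Plekha1* and *Pglyrp1*.

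Genotype was then compared within each housing condition for the other neutrophil genes, of which 16 of 43 passed the filter on low counts, by edgeR's quasi-likelihood test with Benjamini-Hochberg adjustment over all genes tested. In SPF mice 8 of the 16 were higher in 5xFAD and none lower, where 3.73% of all genes were called higher and 0.837% lower, with a median log2 fold change of 2.58 against -0.03 over all genes. *Chil3*, *Anxa1*, *Hp*, *Wfdc21*, *Ifitm6*, *Pglyrp1* and *Fpr1* passed the filter only through 5xFAD libraries and had 0 to 2 reads in each SPF WT library, so nothing is read from the median or the count in this or the other housing conditions. *Lyz2*, lysozyme of granules and macrophages, rose from 232 ± 33.7 CPM in SPF WT (n = 5) to 1301 ± 260 in SPF 5xFAD (n = 3), or by 2.54 log2 units with an SE of 0.211 (adjusted p = 6.99e-10). *Wfdc17*, a WAP-domain protein also made by activated macrophages, rose from 0.530 ± 0.305 to 14.0 ± 2.38 CPM (log2 fold change 4.78 ± 0.592, adjusted p = 1.34e-06). *Olfm4*, olfactomedin 4 of the specific granule, had 2.02 ± 0.647 and 4.64 ± 1.90 CPM (log2 fold change 1.25 ± 0.313, adjusted p = 0.0133), which was 0.288 without FAD_SPF_1144. *Anxa1*, a phospholipid-binding protein, had 104, 145 and 45 reads in the SPF 5xFAD and 0 in the SPF WT libraries (adjusted p = 0.000999), and *Chil3* passed with adjusted p = 0.00652 (0.322 with DESeq2). The calls of both, counted among the 8, are thus of the group that let them pass the filter against 0 reads and 1 read in all SPF WT libraries. The other 3 were *Wfdc21*, *Ifitm6* and *Csf3r*, with adjusted p of 0.0261, 0.0295 and 0.0484, which rose to as much as 0.0697, 0.174 and 0.149 when single mice were left out. *Wfdc21*, with 14 to 25 reads in SPF 5xFAD and 0 in every SPF WT library, and *Ifitm6*, with 4 to 23 reads against at most 2, have calls of the same kind, against counts at or near 0. The count fell to 4 without FAD_SPF_1144 and to 5 without FAD_SPF_1146 or any of WT_SPF_912, WT_SPF_926, WT_SPF_928 and WT_SPF_936, and with DESeq2. The way of description and the genotype cannot be told apart in SPF mice. Summed border-associated macrophage markers were at 3.48 to 8.15 CPM in SPF WT and 16.1 to 29.2 CPM in SPF 5xFAD libraries. In GF mice these ranges overlapped, with 10.7 to 43.9 CPM in WT and 10.0 to 81.0 CPM in 5xFAD libraries. The part of such cells in the rises was not tested.

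In GF mice, where both genotypes share one way of description and 9.43% of all genes were called higher and 6.2% lower, 3 of the 16 genes were higher in 5xFAD, with a median log2 fold change of 1.07 against -0.03 over all genes. *Lyz2* rose from 294 ± 116 (n = 4) to 2135 ± 363 CPM (n = 5), or by 2.99 log2 units with an SE of 0.218 (adjusted p = 2.96e-11), and *Wfdc17* from 1.70 ± 1.81 to 14.9 ± 3.78 CPM (3.25 ± 0.556, adjusted p = 8.9e-05). *Pglyrp1*, a peptidoglycan recognition protein of granules, had 0 reads in the 4 GF WT and 0 to 11 reads in the 5 GF 5xFAD libraries (adjusted p = 0.0373). It gave a value in 17 of the 34 alternatives and was not called in 4 of these, with adjusted p of 0.134 with limma's voomWithQualityWeights, 0.0731 without WT_GF_229, 0.0753 without WT_GF_230 and 0.075 without WT_GF_231, and its call is against counts of 0. *Chil3* and *Hp* had no read in any GF library. *Lyz2* was at 1490 to 2354 CPM in all 5 GF 5xFAD libraries, FAD_GF_201 with its conflicting label among them, and at 153 to 393 CPM in GF WT. *Timp2*, described below, was at 1098 to 1306 and 727 to 807 CPM in the same groups. The GF 5xFAD mice, in which *Lyz2* and *Wfdc17* rose, had next to no reads of the specific granule genes. The source of the rise was not tested.

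In ABX mice 7 of the 16 genes were higher in 5xFAD, where 9.45% of all genes were called higher and 4.98% lower, with a median log2 fold change of 1.94 against -0.01. *Lyz2* rose from 193 ± 16.9 (n = 5) to 1401 ± 267 CPM (n = 6), or by 2.94 log2 units with an SE of 0.195 (adjusted p = 4.16e-12), and *Wfdc17* from 0.431 ± 0.336 to 14.4 ± 4.33 CPM (5.20 ± 0.583, adjusted p = 1.52e-07). *Csf3r* rose from 474 ± 60.8 to 684 ± 24.3 CPM (0.61 ± 0.0769, adjusted p = 1.29e-06). *Anxa1* and *Ifitm6*, an interferon-induced transmembrane protein, were found in all 6 ABX 5xFAD libraries, with 4 to 77 and 2 to 19 reads (adjusted p = 0.00388 and 0.0046). *Fpr1*, the formyl peptide receptor 1, had 0 to 23 reads in the ABX 5xFAD and 0 in the ABX WT libraries and passed with adjusted p = 0.0279, and 0.15 with DESeq2. It gave a value in 19 of the 34 alternatives and was not called in 4 of these. *Fpr1*, *Ifitm6* and *Anxa1* passed the filter only through 5xFAD libraries, so that their calls, counted among the 7, are against counts of 0 in ABX WT mice, with 2 reads of *Anxa1* in 1 library as the exception. The call of *Chil3* (adjusted p = 0.0351) rested on FAD_ABX_1151, the only ABX library with *Chil3* reads, and was lost without it (adjusted p = 1). The calls of *Lyz2*, *Wfdc17* and *Csf3r* passed in all 34 alternatives, and the source of their rise was not tested. All ABX WT libraries had a 3-digit animal number in their description and no ABX 5xFAD library did, so genotype and the way of description cannot be told apart in ABX mice either. Summed border-associated macrophage markers were at 3.80 to 5.90 CPM in ABX WT and 34.0 to 253 CPM in ABX 5xFAD libraries. Summed monocyte markers were at 3.75 to 9.57 and 11.0 to 54.6 CPM. The part of such cells in the rises was not tested.

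Housing was compared within each genotype. In WT mice 0 of the 16 genes were called for GF against SPF by edgeR (3 at an unadjusted p under 0.05, 1 with voomWithQualityWeights, 0 with DESeq2), where 1.62% of all genes were. For ABX against SPF 0 were called in WT and 0 in 5xFAD mice (2 at an unadjusted p under 0.05 in each, with 0 and 3 calls by voomWithQualityWeights and 0 and 0 by DESeq2), where 0% of all genes were. In 5xFAD mice 3 of the 16 differed between GF and SPF, 1 of them higher and 2 lower in GF, where 6.97% of all genes were higher and 5.86% lower. *Chil3* and *Hp* passed the filter on low counts only through libraries with a 4-digit animal number, so that their tests compare these with counts at or near 0. *Chil3* (adjusted p = 0.00507) and *Hp* (adjusted p = 0.0273) were lower in GF 5xFAD, with 0 reads in 5 of 5 libraries, whereas *Lyz2* was higher (log2 fold change 0.81 ± 0.219, SE, adjusted p = 0.0154). The count was 1 without FAD_SPF_1146 and 1 without FAD_SPF_1148. *Lyz2* then had adjusted p = 0.104 and 0.107, and *Hp* lost its call without any of the 3 SPF 5xFAD mice (up to 0.0743). GF and SPF 5xFAD libraries were described in different ways, so these and housing cannot be told apart.

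Partner genes of the 10 proteins were taken from a list of 9, of which 6 passed the filter. *Timp2*, an inhibitor of matrix metalloproteinases, rose in 5xFAD in each housing condition, from 816 ± 52.0 to 1152 ± 54.5 CPM in SPF (log2 fold change 0.54 ± 0.0879, SE, adjusted p = 0.000104), from 767 ± 37.1 to 1229 ± 81.2 CPM in GF (0.81 ± 0.0832, adjusted p = 2.75e-08) and from 704 ± 47.7 to 1090 ± 113 CPM in ABX mice (0.71 ± 0.0748, adjusted p = 4.27e-08). It was the only one of the 6 that passed in SPF mice. Of all genes, 3.73% were called higher and 0.837% lower in SPF, 9.43% and 6.2% in GF and 9.45% and 4.98% in ABX mice. *Pecam1*, an endothelial adhesion molecule that CD177 binds, fell in 5xFAD in GF mice from 30.3 ± 3.90 to 13.6 ± 6.18 CPM (log2 fold change -1.03 ± 0.255, adjusted p = 0.00485) and in ABX mice from 36.5 ± 9.79 to 21.01 ± 5.12 CPM (-0.71 ± 0.229, adjusted p = 0.0339, up to 0.122 without WT_ABX_923). In SPF mice it had 37.3 ± 5.49 and 22.5 ± 2.51 CPM (log2 fold change -0.68 ± 0.282, adjusted p = 0.22), and the difference between the housing conditions was not tested. *Lrp1*, a receptor that takes up lactoferrin, passed in ABX mice with adjusted p = 0.0498 but not in 19 of its 34 alternatives. *Tlr4*, a receptor of S100A8 and S100A9, was lower in GF than in SPF 5xFAD mice (113 ± 28.1 against 182.3 ± 13.2 CPM, log2 fold change -0.59 ± 0.161, adjusted p = 0.0163), with 0.0568 without FAD_SPF_1146 and 0.084 without FAD_SPF_1148. In the other 3 housing comparisons 0 of the 6 were called by edgeR (2 at an unadjusted p under 0.05 for GF and 2 for ABX against SPF in WT mice, and 0 for ABX against SPF in 5xFAD mice), with 1, 0 and 0 calls by voomWithQualityWeights and 0 in each by DESeq2. Of all genes, 1.62% were called for GF against SPF in WT mice and 0% for ABX against SPF in either genotype, so nothing is read from these counts. Between GF and SPF 5xFAD mice 6.97% were higher and 5.86% lower in GF. The p-values set each difference against the spread between mice, estimated over all groups together. In SPF and ABX mice genotype cannot be told apart from the way of description for these genes. Between GF and SPF mice housing cannot be told apart from the place of origin or the way of description.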

How the data were processed

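Reads were aligned by the authors to the mouse genome GRCm38 (STAR 2.7.2) and assigned to genes of GENCODE M21 (featureCounts 1.6.2), with versions from the submitters' processing notes. The deposited table gives raw counts, not normalized, and the table's gene length is the summed exon length. SMARTer cDNA from 300 pg of total RNA and Nextera XT libraries carry no strand and no molecular identifiers. Left out were 92 spike-in entries, and 0 per-sample columns were unused. The members, the lists and the genes of the figures were chosen with earlier results of these data known.

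CPM of single genes and sums refers to library totals. Tests used R 4.3.3 and edgeR 4.0.16 over all 28 mice (filterByExpr at 10 counts, total at least 15, TMM, quasi-likelihood test, 1 term per group), with adjusted p under 0.05 called over 15298 genes, and the fit was tested on simulated data. Replicates of a group were not duplicates by a chi-square test of their counts in 54 pairs (lowest statistic per degree of freedom 6.39). Of the lists, every member, *Ly6g*, *Mpo*, *Elane*, *Cxcr2* and *Csf3r*, up to 6 genes called per comparison with the smallest adjusted p and the 10 genes most like the members were to be named. Genes named beyond this rule (further called genes, genes at 0 and genes apart between the libraries) were chosen after their values were seen. Likeness used log2 CPM with a prior count of 1. Alternatives were DESeq2 1.42.0, limma 3.58.1 voomWithQualityWeights, other scalings, no low-count filter and leaving out mice. Figures were drawn with matplotlib 3.10.9.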

Additional observations from a re-analysis of the deposited data

Results flagged for a closer look

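A library counts as far from its group when its gap to the nearest other, divided by the range of the group, is above Dixon's 95% critical value, which chance passes in about 1 of 20 groups. Of 18 combinations of a group of 4 to 6 libraries with a gene or the sum of the 10 that had a library above 3 reads, 13 were beyond it, 9 of them in ABX 5xFAD. The genes were chosen on these values and share libraries, so this rate does not apply to them and the values are a description. Where the other libraries of a group are all at 0, the ratio is 1 by construction.

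In ABX 5xFAD, FAD_ABX_1151 was far above the other 5 for *S100a8* (30.5 CPM, next highest 0.285), *S100a9* (25.6, next 0.193), *Lcn2* (7.65, next 0), *Ltf* (26.5, next 0), *Ngp* (48.9, next 0.0570), *Camp* (12.0, next 0.0644), *Cd177* (4.14, next 0) and the sum of the 10 genes (156.1, next 5.02). In the same group FAD_ABX_1455 stood out for *Mmp8* (0.489 CPM, next 0). In GF 5xFAD, FAD_GF_201 stood out for *Mmp9* (2.53 CPM, next 0.0808) and for the sum (2.58 CPM). *Ltf* stood out in WT_SPF_912 (0.294 CPM) and in WT_ABX_932 (0.167 CPM), each with 0 in the other libraries of the group. The spike-in entries, which no comparison used, held at most 12 reads, in WT_SPF_928.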

How the results depend on the processing

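Of 96 recomputed values of the list counts and of the group medians of the summed CPM, 86 stayed within 1.5 times the main value or the spread between mice, and all 60 single-gene medians did so under TMM. The count of other neutrophil genes called became 5 with DESeq2 for 5xFAD against WT in SPF (main 8), 3 with voomWithQualityWeights and 1 without FAD_ABX_1151 and FAD_ABX_1482 for ABX against SPF in 5xFAD (main 0), 6 with voomWithQualityWeights and 5 without the low-count filter for GF against SPF in 5xFAD (main 3), and 1 with voomWithQualityWeights for GF against SPF in WT (main 0). The count of partner genes became 1 without FAD_ABX_1151 and FAD_ABX_1482 for 5xFAD against WT in ABX (main 3), and with voomWithQualityWeights 2 for 5xFAD against WT in SPF (main 1), 2 for GF against SPF in 5xFAD (main 1) and 1 for GF against SPF in WT (main 0). The cause was not tested. With each of the 28 mice left out in turn, other neutrophil genes called ranged from 4 to 9, 2 to 4 and 5 to 8 for 5xFAD against WT in SPF, GF and ABX, from 1 to 4 and 0 to 1 for GF and ABX against SPF in 5xFAD, and from 0 to 1 and 0 to 0 in WT. The single calls were without FAD_ABX_1151 and without WT_GF_199. Partner genes ranged from 1 to 1, 2 to 3 and 1 to 3 for 5xFAD against WT in SPF, GF and ABX (1 without FAD_ABX_1453, FAD_ABX_1460 or FAD_ABX_1482 or WT_ABX_909 or WT_ABX_910), from 0 to 1 for GF against SPF in 5xFAD (0 without FAD_SPF_1146 or FAD_SPF_1148) and were 0 in the other 3. Median summed CPM of the 10 genes ranged from 137.8 to 245.1 in SPF 5xFAD, 2.08 to 2.52 in ABX 5xFAD, 0.0211 to 0.0615 in GF 5xFAD, 0.0241 to 0.113 in SPF WT, 0 to 0.0543 in GF WT and 0 to 0.0346 in ABX WT. No paired analysis was possible because the groups share no replicate numbers. Levels at or below 3 reads cannot be told from 0 at this depth.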

Other observations

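*Cxcr2*, a receptor of mature neutrophils, had its reads mainly in GF mice, unlike the 7 granule and cytosolic genes. It had 16, 17 and 9 reads in WT_GF_229, WT_GF_230 and WT_GF_231 and 36 and 19 in FAD_GF_184 and FAD_GF_185, against 1 in WT_SPF_912, 4 and 1 in FAD_SPF_1146 and FAD_SPF_1148 and 0 in the other 20 libraries. These GF libraries had no read of *Ngp*, *Ltf* or *Cd177*.

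The likeness ranking went on, from the sixth to the tenth place, with 4 genes that are not specific to neutrophils and with *Pglyrp1*. *Slc12a2*, a sodium, potassium and chloride cotransporter, ranged from 306 to 418 CPM in the 4 libraries described by a 4-digit animal number and from 120 to 304 CPM in the other 24, and *Plekha1*, a phosphoinositide-binding protein, from 141 to 182.1 and from 68.2 to 130 CPM. *Ttc3* ranged from 88.8 to 106 and from 58.8 to 96.7 CPM, *Gpr137c* from 0.690 to 1.63 and from 0.114 to 0.623 CPM and *Pglyrp1* from 0.479 to 1.09 and from 0 to 0.515 CPM. The 4 libraries lay above the other 24 for *Slc12a2* and *Plekha1*, and for *Gpr137c* at a far lower level. Of all 15298 genes tested, 33 (0.216%) lay above in this way and 38 (0.248%) lay below. The ranking is set by these same 4 libraries, so nothing is read from the separation.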
